A study of Mus musculus with 10 samples.

Results

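The p53 pathway was followed through 31 genes, which were found by their symbols among the 24470 gene entries of the count table. They comprise 3 regulators of the pathway (p53 itself, Mdm2 and Mdm4) and the known targets of p53, split into 5 genes of cell cycle arrest, 14 of apoptosis, 5 of DNA repair and 4 of metabolism. The comparison asks how RNA of these genes stood when glycogen breakdown was blocked in the fetal testis. Male gonads were taken, each with its mesonephros, from 5 C57BL/6 mouse embryos at E12.5, named M1 to M5. In every pair, the GPI gonad spent 48 h in culture with 75 µM GPI, an inhibitor of the glycogen phosphorylases, which release glucose from stored glycogen, and its partner spent the same time with the vehicle, DMSO. The mesonephros was removed after culture. GPI is not directed to a single cell type, and each of the 10 libraries holds RNA of a whole cultured testis.

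The libraries held 10203679 to 15635322 counts, of which 0.141% to 0.189% fell on the 31 genes. Values below are normalized counts, the counts of a gene divided by the TMM-scaled size of its library and multiplied by the mean of these sizes over the 10 libraries. The testis-determining factor Sox9, which marks Sertoli cells, the supporting cells of the testis, was found in every library, between 984 and 2141 normalized counts. In a principal component analysis of the 500 most variable genes, the first component (78.1% of the variance) separated GPI from vehicle gonads. On the second (5.33%), the GPI gonad of M1 stood apart at 19.6, with the other 9 libraries between -6.15 and 8.15, so some values below are also given without M1.

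p53 is a transcription factor that is kept scarce in unstressed cells, because Mdm2 marks it for degradation and Mdm4 masks the domain with which it activates genes. DNA damage, a disturbed supply of nucleotides or ribosomes and other stresses stabilize the p53 protein, which then raises transcription of genes that halt the cell cycle, kill the cell, repair DNA or redirect metabolism, and of Mdm2, which closes a feedback loop. In the testis p53 is best known for the removal of damaged germ cells. Its activity is set mostly at the level of the protein, which was not measured here.

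Of the 31 genes, 30 passed the filter on low counts and were tested, and Gdf15 did not. With edgeR's quasi-likelihood test, the embryo as a block and Benjamini-Hochberg adjustment over all 13941 tested genes at an FDR of 0.05, 7 of the 30 were higher with GPI (23.3%) and 2 were lower (6.67%). Over all tested genes the shares were 11.1% higher and 11.9% lower. The pathway genes and the lists below were chosen with earlier results of these data known. The shares are therefore descriptions, and their difference was not tested. The genes called higher were the feedback regulator Mdm2, the arrest target Ccng1 and the apoptosis targets Trp53inp1, Eda2r, Zmat3, Aen and Ei24. The genes called lower were the arrest target Plk2 and the apoptosis target Phlda3. The median log2 fold change of the 30 genes was 0.24, beside 0.02 over all tested genes, and 23 of the 30 estimates were above 0. In 6 of the 30 (20%) every GPI gonad stood above every vehicle gonad, beside 7.07% of all tested genes, and in 1 (3.33%) every GPI gonad stood below, beside 9.05%.

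Summed over the 31 genes, the vehicle gonads of M1 to M5 held 19337, 17225, 18681, 18734 and 17892.5 normalized counts and their GPI partners 23282, 20910.0, 22029.9, 22593 and 19508. The sum was higher with GPI in each of the 5 embryos. Mdm4 held the largest share of it in all libraries together, and Ccng1 differed most, from a mean of 2022 to 4002, beside 4787.5 to 5499 for Mdm4. In whole-gonad RNA, fewer cells of a type and less RNA per cell cannot be told apart, and this holds for each gene below. Without M1, 6 of the 30 tested genes were called higher and 3 lower, beside 10% and 12.1% of all genes tested in that fit. The number of all genes called higher fell from 1544 to 969 (6.93%) without M3 and to 1024 (7.34%) without M4. In these fits, 5 and 6 of the 30 tested p53 pathway genes were called higher.

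**Figure D1:**
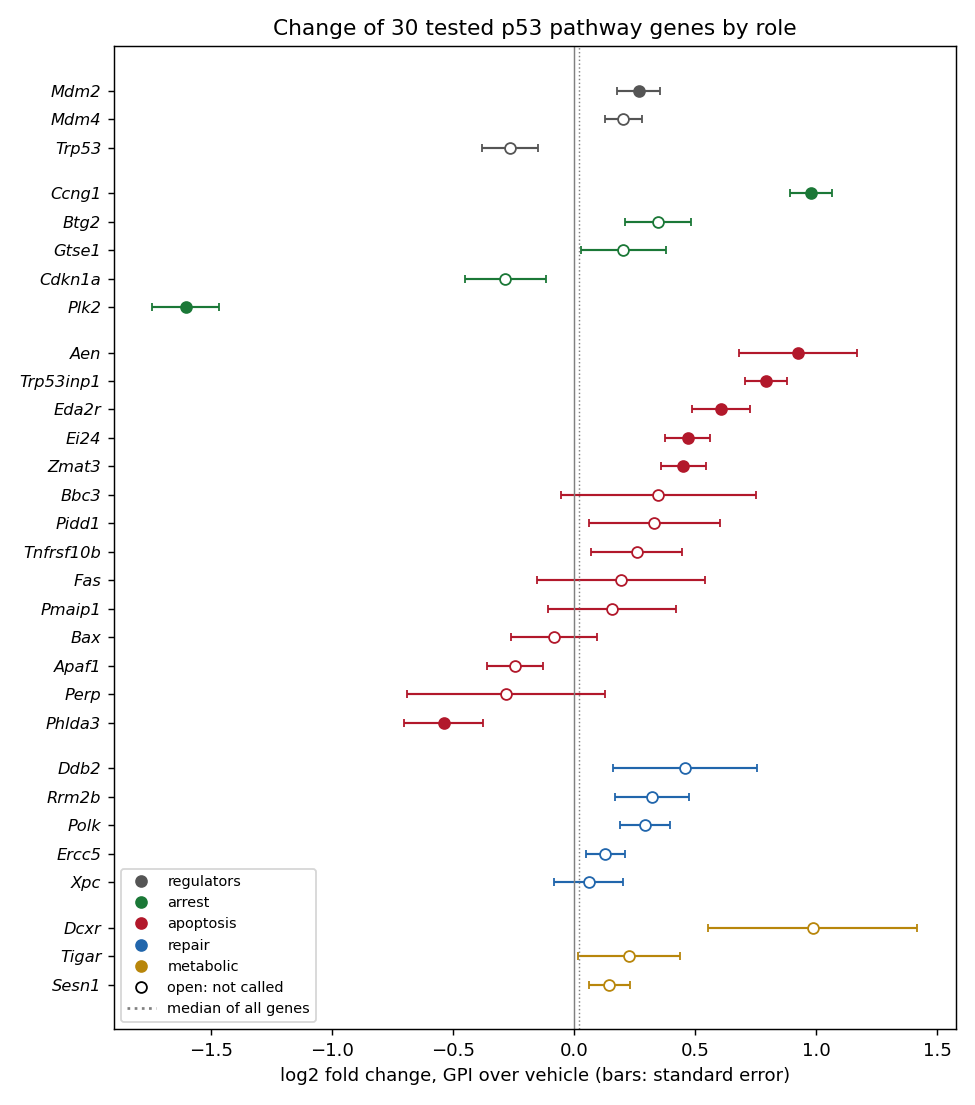
Log2 fold change of the 30 tested p53 pathway genes, GPI over vehicle (horizontal axis, 5 embryos; bars are standard errors), in 5 blocks by role. Filled points passed the FDR of 0.05, open points did not, and the dotted line is the median of all tested genes (0.02). Ccng1 (0.98) and Plk2 (-1.60), both arrest targets, lie far apart on either side of 0, and the 5 repair genes all lie to the right of 0 with open points.

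The p53 half-site consensus is a palindrome of 10 bases, so that a search of one strand covers both. It was searched in the 250 bases upstream of the RefSeq gene starts (build GRCm38.p6) of the 23 genes with an entry, and no other motif was searched. No entry was held for Ddb2, Perp, Pmaip1, Rrm2b, Tnfrsf10b, Trp53inp1, Xpc and Zmat3. An exact match stood upstream of 9 of the 23 genes (39.1%), beside 8.2% of the 27025 genes in the whole promoter table. Some genes have more than 1 window, and by window the shares were 28.1% of 32 and 7.13% of 32851. The genes were listed as regulators and known targets of p53, and these shares do not depend on the treatment. The 9 genes were Trp53, Mdm2, Cdkn1a, Ccng1, Bax, Aen, Ei24, Polk and Sesn1. A pair of half-sites at most 13 bases apart, with the 4 core bases of each intact and at most 2 mismatches in all, stood upstream of Bax, Cdkn1a and Sesn1 (3 of 23, 13%), beside 2.06% of all genes. The stretches of the 4 genes called higher with a match, and of Cdkn1a and Bax as the best known targets that were not called, are printed from RefSeq. Capitals mark the exact half-sites and, for Cdkn1a, also the mismatched half-site that follows. The mismatched half-sites that pair with that of Bax are not marked:
Mdm2: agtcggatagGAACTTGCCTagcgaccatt
Ccng1: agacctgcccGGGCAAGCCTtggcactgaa
Aen: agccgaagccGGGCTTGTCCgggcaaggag
Ei24: cgtgcggcccGGGCATGCCC
Cdkn1a: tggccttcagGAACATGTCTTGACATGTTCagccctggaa
Bax: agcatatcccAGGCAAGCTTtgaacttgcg
They lie at chr10:117710925-117710954, minus strand (Mdm2), chr11:40755452-40755481, minus strand (Ccng1), chr7:78895927-78895956, plus strand (Aen), chr9:36797335-36797354, minus strand (Ei24), chr17:29090918-29090957, plus strand (Cdkn1a) and chr7:45467080-45467109, minus strand (Bax). Those of Mdm2, Ccng1, Cdkn1a and Bax lie upstream of the annotated gene, and those of Aen and Ei24 lie in an exon, since another transcript of each gene starts further upstream. Cdkn1a, Aen, Polk and Sesn1 each have a further window, at another gene start, which held no match. The half-sites of Cdkn1a are joined without a spacer and hold 1 mismatch. Another exact half-site of Cdkn1a lies 12 bases upstream of the first, and that pair (chr17:29090896-29090947 with flanks) holds 0 mismatches. Eda2r, Plk2 and Phlda3, which were called and have an entry, held no match in their windows. A match is a description of the letters in these windows, not a site or a cause.

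Of the regulators, 1 of 3 was called higher and none lower, beside 11.1% and 11.9% of all tested genes. An unadjusted p under 0.05 was found for 3 of 3, as for 34% of all tested genes. Trp53 encodes p53 (Entrez 22059, chr11:69580359-69591873 in mm10). It stood at 537, 751, 563, 667 and 532 normalized counts in the vehicle gonads of M1 to M5 and at 537, 446, 437, 548 and 562 in their GPI partners. The GPI gonads of M2, M3 and M4 were lower than their partners while M1 and M5 barely differed, and the groups overlapped. The log2 fold change of -0.26 ± 0.12 (SE, n = 5 pairs) was not called (adjusted p = 0.13). Without M2 it was -0.14 and without M5 -0.35, also not called (adjusted p = 0.392 and 0.0734). Mdm2, the ubiquitin ligase that degrades p53 and a p53 target itself, read 1914.5, 1979.6, 1918, 1659.5 and 1564 with vehicle and 2668, 1880.1, 2116, 1999 and 2238 with GPI. It was higher with GPI in 4 of 5 embryos, most in M1 and M5, and the groups overlapped. Its log2 fold change was 0.27 ± 0.09, called at an adjusted p of 0.0456. That call was lost under 9 of 13 alternatives, among them the fits without M1, M3, M4 or M5 (adjusted p = 0.173, 0.0986, 0.116 and 0.168) and the fit without the embryo block (0.0565; range 0.00976 to 0.173 over the 12 alternatives other than the test against a fold change of 1.5, as in the ranges below).

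Mdm4, the partner of Mdm2 that blocks p53 without degrading it, stood at 5219, 3972, 4857.5, 4886 and 5003 normalized counts with vehicle and at 5773, 5638, 5539.8, 5637 and 4906.5 with GPI. The vehicle gonad of M2 was low among the vehicle gonads and the GPI gonad of M5 low among the GPI gonads, and in M5 alone the GPI gonad was under its partner. Its log2 fold change was 0.20 ± 0.08 (adjusted p = 0.0749), and without M5 it was 0.26 and called (0.0411; range over 12 alternatives 0.0411 to 0.22). Without M2 it was 0.13 (0.199).

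**Figure D2:**
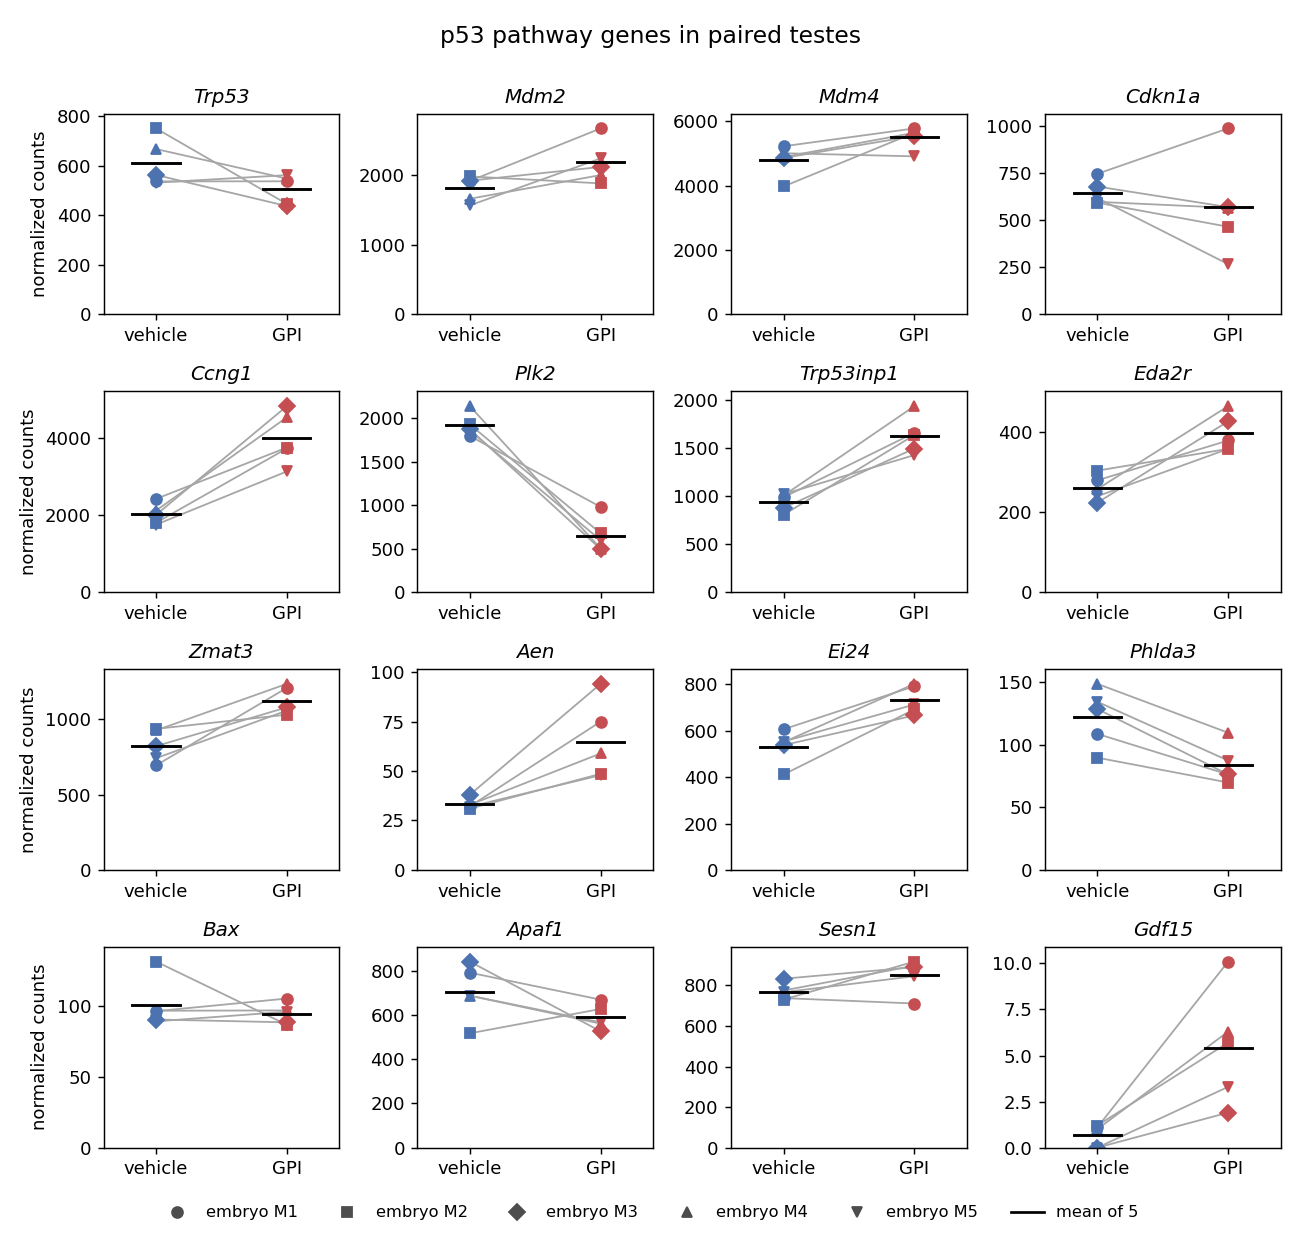
Normalized counts (vertical axes, each from 0) of 16 p53 pathway genes in the vehicle (blue) and GPI (red) gonads of 5 embryos. Grey lines join the gonads of 1 embryo, symbols mark the embryo and black bars the mean of 5. The lines of Ccng1, Trp53inp1, Eda2r, Zmat3, Aen and Ei24 rise in 5 of 5 embryos, those of Plk2 and Phlda3 fall in 5 of 5, and for Cdkn1a M1 goes up while the other 4 go down.

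Of the 5 arrest targets, 1 was called higher and 1 lower (20% each, beside 11.1% and 11.9% of all tested genes). Their median log2 fold change was 0.20. Ccng1 encodes cyclin G1, which recruits a phosphatase to Mdm2. It held 2424, 1804, 2009, 2119.7 and 1754 normalized counts in the vehicle gonads and 3758, 3735, 4834, 4543 and 3138 in the GPI gonads. The lowest GPI gonad (M5) stood above the highest vehicle gonad (M1), and within embryos the log2 ratios were 0.63, 1.05, 1.27, 1.10 and 0.84. Its log2 fold change was 0.98 ± 0.09, a 1.97-fold difference (adjusted p = 2.95e-06), and the call was kept under 13 of 13 alternatives.

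Plk2, a polo-like kinase of the centrosome that p53 induces in arrested cells, moved the other way. The vehicle gonads held 1795, 1927, 1871.5, 2138 and 1857 normalized counts and the GPI gonads 979, 676, 495, 502 and 597. The groups did not overlap, and the GPI gonad of M1 was the highest of its group. The level with GPI was 32.9% of that with vehicle (log2 fold change -1.60 ± 0.14, adjusted p = 2.03e-06), called under 13 of 13 alternatives.

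Cdkn1a encodes p21, the cyclin-dependent kinase inhibitor through which p53 stops the cycle. Its vehicle gonads held 746, 593, 679, 598 and 618 normalized counts and its GPI gonads 987, 465, 569.6, 566 and 267. Only the GPI gonad of M1 was above its partner, that of M5 was the lowest of the 10 libraries, and the spread with GPI (SD 263) exceeded that with vehicle (SD 65.3). Over 5 embryos the log2 fold change of -0.28 ± 0.17 was not called (adjusted p = 0.26). Without M1 it was -0.48 and called lower (adjusted p = 0.0353, range over 12 alternatives 0.0353 to 0.772), and without M5 it was -0.0662 (0.772). Btg2, an antiproliferative cofactor of the deadenylase complex, read 137, 236, 202, 197 and 194 with vehicle and 233, 217, 247, 269 and 253 with GPI. The vehicle gonad of M1 was the lowest, and in M2 the GPI gonad was below its partner. Its log2 fold change was 0.35 ± 0.14 (adjusted p = 0.0881), and without M2 it was 0.47 and called (0.025, range 0.025 to 0.285). Gtse1, a microtubule protein of dividing cells that draws p53 out of the nucleus, was near 99.5 normalized counts with vehicle and 115.5 with GPI (0.20 ± 0.18, adjusted p = 0.464). Without M4 its estimate was 0.11 and without M1 0.32 (adjusted p = 0.776 and 0.253).

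The 14 apoptosis targets held 5 genes called higher (35.7%, beside 11.1% of all tested genes) and 1 called lower (7.14%, beside 11.9%). Their median log2 fold change was 0.30. The death receptors Fas and Tnfrsf10b, the mitochondrial killers Bax, Bbc3 and Pmaip1 and the caspase scaffolds Apaf1 and Pidd1 were not among those called. Trp53inp1, a nuclear partner of p53 that also takes part in autophagy, held 987, 804, 877, 1004 and 1018 normalized counts with vehicle and 1656, 1634, 1493, 1934 and 1425 with GPI. Every GPI gonad was above every vehicle gonad, and the log2 fold change was 0.79 ± 0.09 (adjusted p = 1.66e-05). Eda2r, a receptor of the tumour necrosis factor family on the X chromosome, rose from 279, 303, 223, 257 and 239 to 378, 357.5, 426, 464 and 357. The smallest difference was in M2, and the groups did not overlap (0.61 ± 0.12, adjusted p = 0.0023).

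Zmat3, an RNA-binding zinc finger protein that steers splicing, held 693, 935.5, 821, 925 and 740.5 normalized counts with vehicle and 1208, 1029.6, 1078, 1234 and 1057 with GPI. The groups stood apart, with M1 the lowest vehicle gonad and among the highest with GPI (0.45 ± 0.09, adjusted p = 0.0031). Its span overlaps 4930429B21Rik on the other strand by 177 bases but in no exon, and counting ignored the strand. That gene had 41 counts in all libraries together, beside 9672 for Zmat3. Ei24, a protein of the endoplasmic reticulum, stood at 607, 412, 538, 551 and 554 with vehicle and 792, 692, 667, 803 and 714 with GPI. It rose in 5 of 5 embryos without overlap of the groups (0.47 ± 0.09, adjusted p = 0.00205). For Trp53inp1, Eda2r, Zmat3 and Ei24, the call was kept under 12 of 13 alternatives and lost only in the test against a fold change of 1.5.

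Aen, an exonuclease that degrades nucleic acids in dying cells, was scarce, at 32.1, 31, 38, 32.9 and 32 normalized counts with vehicle and 75, 48.6, 94.1, 58.9 and 47.9 with GPI. The vehicle gonads lay close together and the GPI gonads of M1 and M3 were the highest. The log2 fold change was 0.92 ± 0.24 (adjusted p = 0.0139). Without M3 it was 0.81 and no longer called (0.0877, range over 12 alternatives 0.00806 to 0.0877), and the call was also lost in the test against a fold change of 1.5.

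Phlda3, which keeps the survival kinase Akt from the membrane, held 108.5, 89.5, 128, 148 and 134 normalized counts with vehicle and 76.1, 69.7, 76.1, 109 and 87.2 with GPI. Each GPI gonad was below its partner, though the groups overlapped because M2 was low and M4 high in both. The log2 fold change was -0.54 ± 0.16 (adjusted p = 0.0281). The call was lost in the test against a fold change of 1.5, with DESeq2 (0.0527) and without M3, M4 or M5 (0.0999, 0.0729 and 0.0813; range over 12 alternatives 0.02 to 0.0999).

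The other 8 apoptosis targets were not called, with log2 fold changes from -0.28 (Perp) to 0.35 (Bbc3). Bax, the pore former of the mitochondrial membrane, held 96.3, 131, 90.4, 96.6 and 89.1 normalized counts with vehicle and 105, 86.7, 88.4, 96.8 and 95.9 with GPI. Apart from the vehicle gonad of M2, the libraries of both groups lay close together (-0.08 ± 0.18, adjusted p = 0.8). Without M2 the sign turned, at 0.05 (adjusted p = 0.876, range over 12 alternatives 0.671 to 0.876). Apaf1, the scaffold on which caspases are activated, stood at 793, 518, 843, 688 and 689 with vehicle and 670.4, 628, 527, 562 and 568 with GPI. The GPI gonad was below its partner in 4 embryos and above it in M2, whose vehicle gonad was the lowest of the 10 libraries. Its log2 fold change was -0.24 ± 0.12 (adjusted p = 0.16), and without M2 it was -0.37 and called lower (0.0205, range 0.0205 to 0.473).

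Pmaip1 (Noxa), which neutralizes a survival factor of the Bcl2 family, held 46.5, 44.2, 61.4, 69.7 and 37.3 normalized counts with vehicle and 81.7, 80.3, 46.6, 61 and 29.4 with GPI. The GPI gonads of M1 and M2 were above their partners and those of M3, M4 and M5 below (0.16 ± 0.27, adjusted p = 0.737). Without M1 the estimate was -0.03 and without M2 -0.02 (adjusted p = 0.961 and 0.966, range over 12 alternatives 0.58 to 0.966). Bbc3 (Puma), a related activator of Bax, averaged 13.1 ± 5.5 (SD, n = 5) normalized counts with vehicle and 16.2 ± 2.5 with GPI, a level at which the standard error of its log2 fold change was 0.40. Without M1 its estimate went from 0.35 to 0.18 (adjusted p = 0.835, range over 11 alternatives 0.5 to 0.835). The death receptor Fas (18.3 ± 6 and 21.1 ± 7.7) and the membrane protein Perp (16.8 ± 5.9 and 14 ± 7.1) were as scarce. Without M1 the estimate of Perp was -0.12 and without M5 -0.46 (adjusted p = 0.893 and 0.536). That of Fas went from 0.19 to 0.09 without M3 and to 0.28 without M4 (adjusted p = 0.916 and 0.723). Tnfrsf10b, the receptor for the death ligand Trail, averaged 145 ± 20.8 with vehicle and 178 ± 51.5 with GPI, where M1 was the highest at 261. Its log2 fold change was 0.26, and 0.0779 without M1 (adjusted p = 0.826, range 0.164 to 0.826). Pidd1, a scaffold for caspase activation, averaged 33.6 ± 8.2 and 42.7 ± 11.4. Adjusted p-values of Bbc3, Fas, Perp, Tnfrsf10b and Pidd1 ran from 0.37 to 0.752.

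Of the 5 repair targets, 0 were called in either direction by edgeR, DESeq2 or limma-voom. Over all tested genes, the shares in edgeR were 11.1% higher and 11.9% lower. In edgeR, 1 repair target had an unadjusted p under 0.05, beside 34% of all tested genes. The log2 fold changes of the 5 were all above 0, from 0.06 to 0.46, with a median of 0.29. That 1 was Polk, a DNA polymerase that copies past damaged bases, which stood at 414, 384, 351, 316 and 341 normalized counts with vehicle and 530.5, 372, 456, 432 and 425 with GPI. It was higher with GPI in 4 of 5 embryos and the groups overlapped (0.29 ± 0.10, adjusted p = 0.0584). Without M2 it was 0.38 and called (0.0162, range over 12 alternatives 0.0162 to 0.21). Rrm2b, the p53-induced subunit of ribonucleotide reductase, held 266, 216, 347, 308 and 337 with vehicle and 429, 425, 351, 292.5 and 345 with GPI. Only M1 and M2 differed by more than a few percent within the embryo, with log2 ratios of 0.69 and 0.97 (0.32 ± 0.15, adjusted p = 0.154). Without M1 its estimate was 0.21 and without M2 0.16 (adjusted p = 0.403 and 0.453, range 0.116 to 0.453).

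Ddb2, which finds ultraviolet damage for excision repair, held 31, 29.8, 35.7, 30.9 and 43.4 normalized counts with vehicle and 28, 64, 52.3, 62.1 and 36 with GPI. The GPI gonads of M2, M3 and M4 were above every vehicle gonad, and those of M1 and M5 were below their partners (0.46 ± 0.30, adjusted p = 0.311). Without M2 the estimate was 0.29 and without M5 0.65 (adjusted p = 0.577 and 0.201). Ddb2 overlaps Acp2 on the other strand, in 652 bases of exon, and without strand their reads cannot be told apart. Acp2 had 10761 counts in all libraries together beside 424 for Ddb2, and its own log2 fold change was 0.13 ± 0.08 (adjusted p = 0.274). Xpc, the damage sensor of excision repair, averaged 236 ± 29.1 (SD, n = 5) with vehicle and 247 ± 38.3 with GPI, and its estimate of 0.06 turned to -0.09 without M5. Ercc5, the endonuclease that cuts beside the lesion, averaged 735 ± 57.4 and 804 ± 54.9, slightly higher with GPI in 5 of 5 embryos but not called (0.13 ± 0.08, adjusted p = 0.288).

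Of the 4 metabolic targets, 3 were tested and 0 were called by edgeR, DESeq2 or limma-voom. In edgeR, 11.1% of all tested genes were called higher and 11.9% lower. The 3 had 1 unadjusted p under 0.05 in edgeR, beside 34% of all tested genes, and a median log2 fold change of 0.23. Sesn1, a sestrin that restrains the growth kinase mTORC1, held 737.5, 730.3, 833, 775 and 766 normalized counts with vehicle and 711, 918, 890.0, 897 and 845.5 with GPI. M1 alone was lower with GPI, and the other 4 GPI gonads stood above every vehicle gonad (0.15 ± 0.08, adjusted p = 0.248). Tigar, a phosphatase that turns sugar from glycolysis to the pentose phosphate pathway, averaged 56.3 ± 5.9 (SD, n = 5) and 66.2 ± 11.3 (0.23 ± 0.21, adjusted p = 0.498). Without M2, whose GPI gonad was the highest at 85.1, its estimate was 0.14 (adjusted p = 0.728). Without M4 it was 0.31 (0.473). Dcxr, a reductase of the sugar xylulose, stood at 10, 3.6, 6.7, 10 and 13 with vehicle and 10.1, 13.8, 19, 18.9 and 22.9 with GPI. In M1 the gonads were level and in the other 4 embryos GPI was higher, with overlapping groups. That gene had the unadjusted p under 0.05, and its log2 fold change of 0.99 ± 0.43 was not called (adjusted p = 0.123).

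Gdf15, a secreted cytokine of stressed cells, had 1, 1, 0, 1 and 0 raw counts in the vehicle gonads of M1 to M5 and 9, 7, 2, 6 and 3 in the GPI gonads. Counts were found in 3 of 5 vehicle libraries and in 5 of 5 with GPI, 3 against 27 in all. The ratio adjusted for library size was 8.83 (95% exact interval 2.72 to 45.5, for counting error only). Too few counts kept it from the test. Without the filter on low counts its log2 fold change was 2.94 with an adjusted p of 0.125 in edgeR, and 3.10 with 0.0958 in DESeq2.

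Levels were compared between genes per kilobase of the longest annotated transcript (GENCODE M21). In vehicle gonads the highest were Plk2 (685 ± 47 normalized counts per kilobase, SD, n = 5), Mdm4 (674 ± 67.2), Ccng1 (576 ± 76.7) and Mdm2 (575 ± 58.3). Plk2 and Mdm4 differed by less than their SDs, and so did Ccng1 and Mdm2. Cdkn1a followed at 311 ± 31.4 and Trp53 stood at 186 ± 29.3. At the lower end, Aen, Bbc3, Perp, Pidd1 and Dcxr lay between 6.7 and 9.4 and Gdf15 at 0.5. With GPI the order at the top was changed, with Ccng1 first at 1139 and Plk2 at 232 normalized counts per kilobase, below Mdm4 (774) and Mdm2 (693).

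Embryos differed in the size of the difference between their gonads. The median log2 ratio of the 30 tested genes was 0.37, 0.26, 0.12, 0.28 and 0.20 in M1 to M5, beside medians of all tested genes between 0.01 and 0.02. All 5 medians were above those of all genes, and that of M1 was the highest and that of M3 the lowest. In 8 of the 30 genes the GPI gonad was higher in 5 of 5 embryos, beside 15.4% of all tested genes, and in 2 it was lower in 5 of 5, beside 15.2%. The 8 include Dcxr, which in M1 had 9 raw counts in each gonad. M1 had the largest log2 ratio of Tnfrsf10b (0.89), Bbc3 (0.94), Zmat3 (0.80) and Btg2 (0.75) and the smallest of Ccng1 (0.63), as log2 ratios.

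**Figure D3:**
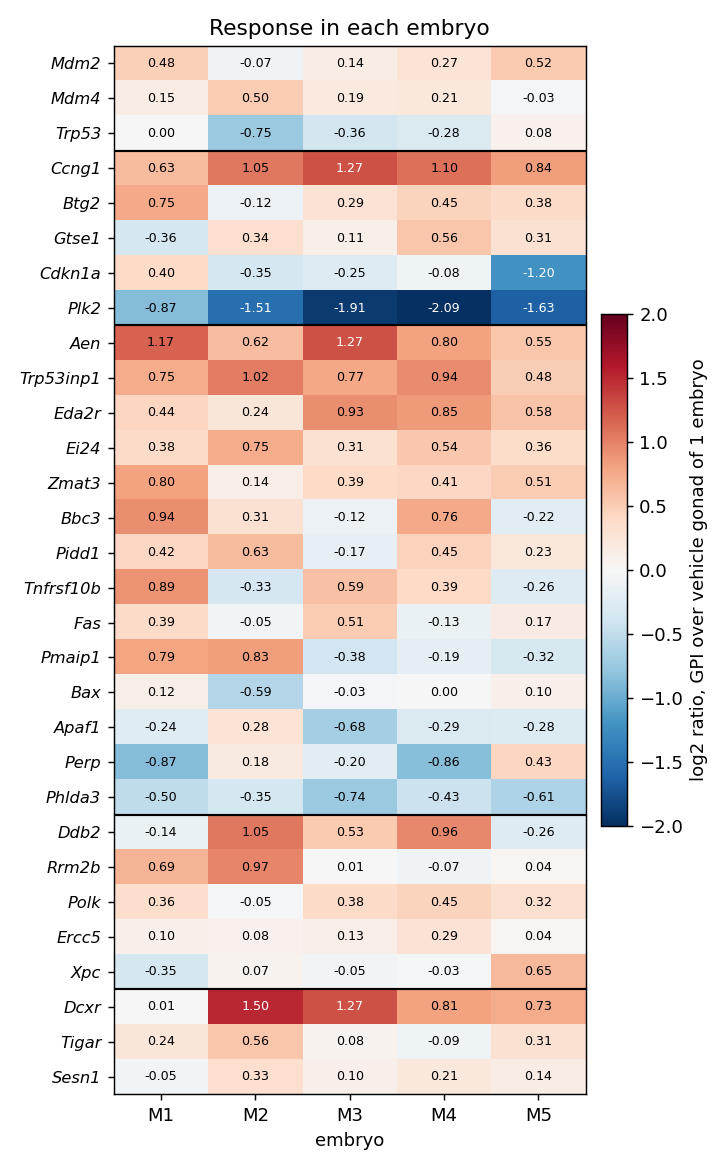
Log2 ratio of the GPI to the vehicle gonad within each embryo (columns M1 to M5) for the 30 tested p53 pathway genes (rows, in blocks by role and ordered by fold change), with the value written in each cell, red above 0 and blue below. Above 0 in 5 of 5 embryos are Ccng1, Aen, Trp53inp1, Eda2r, Ei24, Zmat3, Ercc5 and Dcxr (0.01 in M1), below 0 in 5 of 5 are Plk2 and Phlda3, and Cdkn1a is above 0 in M1 alone.

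A further list of 30 known p53 targets outside the 31, also chosen with earlier results known, was examined, and 25 of them were tested. Of these, 8 were called higher (32%, beside 11.1% of all tested genes) and 3 lower (12%, beside 11.9%), with a median log2 fold change of 0.22. Sesn2, the stress-induced sestrin, held 76.4, 81.1, 72.6, 65.7 and 80 normalized counts with vehicle and 199, 183, 198, 177 and 131 with GPI. It rose in 5 of 5 embryos, without overlap (1.22 ± 0.17, adjusted p = 1.10e-04). Gadd45a, a growth arrest protein, rose by 0.60 ± 0.17 on the log2 scale (adjusted p = 0.0199), and Ckap2, a spindle protein, stood at 0.04 ± 0.10 (0.843). The 3 genes with the smallest p were Trp53i11 (-1.70 ± 0.08, adjusted p = 6.90e-09), Fdxr, the mitochondrial reductase that feeds electrons to steroid synthesis (1.63 ± 0.11, 2.02e-07), and Pank1, an enzyme of coenzyme A synthesis (1.0 ± 0.10, 5.58e-06). The others called lower, named after their values were seen, were Ddit4 (-0.59) and Prkab1 (-0.60).

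Of 20 genes that act on p53 from upstream, such as damage kinases, 17 were tested. In edgeR, 1 was called higher (5.88%, beside 11.1% of all tested genes) and 0 lower (beside 11.9%). The median log2 fold change was -0.02, and 3 of the 17 unadjusted p-values were under 0.05, beside 34% of all tested genes. The damage kinases Atm (0.11 ± 0.07), Atr (-0.07 ± 0.08) and Chek1 (0.17 ± 0.10) were not called (adjusted p = 0.315, 0.598 and 0.275). The gene called was Hipk2, a kinase that phosphorylates p53 in apoptosis, at 1091, 1406, 1212, 1086 and 1554 normalized counts with vehicle and 1733, 1985, 2061, 2214 and 2264 with GPI. Every GPI gonad stood above every vehicle gonad (0.70 ± 0.09, adjusted p = 4.33e-05). The acetylase Crebbp (-0.19 ± 0.07, 0.0738) and the deubiquitinase Usp7 (-0.18 ± 0.07, 0.0903) followed and were not called.

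Cell cycle genes known to be repressed through p21 and the DREAM complex numbered 21, all tested, of which 0 were called higher and 2 lower (9.52%, beside 11.9% of all tested genes), with a median log2 fold change of -0.12. Those called were Mki67, which encodes the proliferation antigen Ki-67 (-0.40 ± 0.07, adjusted p = 0.00142), and Cdc20, an activator of the anaphase ligase (-0.61 ± 0.17, 0.0185). The mitotic kinase Cdk1 (0.01 ± 0.10), its cyclins Ccnb1 (-0.27 ± 0.11) and Ccna2 (-0.15 ± 0.09) and the checkpoint kinase Bub1b (-0.25 ± 0.10) were not called (adjusted p = 0.97, 0.104, 0.257 and 0.0799). A list of 10 genes held Atf4, the transcription factor of the amino acid stress response, which shares some targets with p53, and 9 of its targets. Of the 10, 6 were called higher (60%, beside 11.1% of all tested genes) and 0 lower (beside 11.9%), with a median of 0.53. Atf4 itself rose by 0.52 ± 0.08 (4.41e-04), the pseudokinase Trib3 by 1.68 ± 0.29 (6.71e-04), asparagine synthetase Asns by 1.15 ± 0.11 (3.44e-06) and the cystine transporter Slc7a11 by 1.99 ± 0.21 (1.19e-05), while Ddit3 (Chop) stood at 0.23 ± 0.26 (0.585). The part of this response in the values of the p53 targets was not tested.

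**Figure D4:**
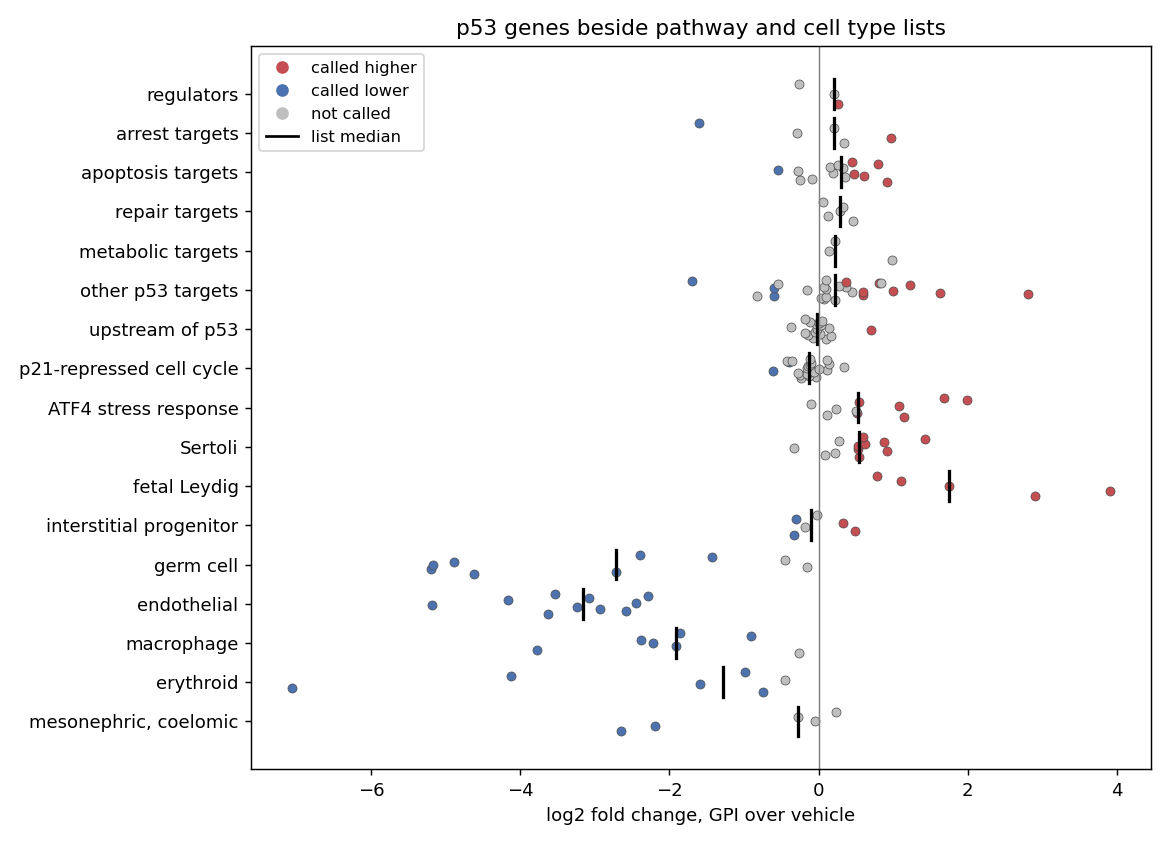
Log2 fold change, GPI over vehicle (horizontal axis, 5 embryos), of every tested gene in the lists of p53 pathway roles, further pathway lists and cell type markers (rows). Red points were called higher, blue lower and grey not called, and black bars are list medians. The p53 roles lie within -1.60 and 0.99, close to 0 beside the endothelial (median -3.16) and germ cell (median -2.72) markers.

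Markers of the cell types of the gonad moved with the treatment, some far more than the p53 pathway genes. Beside the counts of called markers given below, the shares of all tested genes were 11.1% higher and 11.9% lower. Germ cell markers were called lower in 7 of 9 tested (12 listed) and higher in 0, with a median log2 fold change of -2.72. Their summed level was 2019, 3329, 2441, 3132 and 1724 normalized counts in the vehicle gonads of M1 to M5 and 1114, 907, 944, 1064 and 1129.9 in the GPI gonads. Each GPI sum was below its partner. The germ cell helicase Ddx4 (-2.72 ± 0.45), the RNA-binding protein Dazl (-4.62 ± 0.34) and Dppa3 (-5.20 ± 0.36) were lower (adjusted p = 5.15e-04, 5.60e-07 and 3.00e-07). Kit, the gene of the list with the most counts and also expressed in other cells, stood at -0.16 ± 0.09 (0.242).

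Endothelial markers were called lower in 10 of 10 (median -3.16). They summed to 9749.8, 9998.5, 9499, 10787 and 9923 normalized counts with vehicle and 1171, 1414, 928, 731 and 880.4 with GPI. The sums with GPI were lower in every pair, and the groups did not overlap. Pecam1 stood at -4.16 ± 0.15, Cdh5, the most abundant, at -3.63 ± 0.12 and Kdr at -2.44 ± 0.13 (adjusted p = 1.07e-09, 3.76e-10 and 3.57e-08). Macrophage markers were called lower in 6 of 7 tested (8 listed, median -1.91), and summed to 870.3, 538, 621, 621 and 623 with vehicle and 302, 287, 244, 165 and 181 with GPI. Csf1r (-2.22 ± 0.21, 5.35e-06), Cx3cr1 (-2.38 ± 0.39, 5.22e-04) and Ptprc, with the most counts (-1.85 ± 0.26, 1.45e-04), were lower, and Adgre1 was not called (-0.26 ± 0.25, 0.512).

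Erythroid markers were called lower in 5 of 6 (median -1.29), with sums of 1910.1, 2536, 4578, 4122 and 3514 normalized counts with vehicle and 1794, 969, 914, 1032 and 2404 with GPI. The sum was lower with GPI in each embryo, only slightly in M1. Hbb-y had the most counts (-0.98 ± 0.23, 0.0075), and the adult globins Hba-a1 (-1.59 ± 0.34, 0.00333) and Hbb-bs (-4.13 ± 0.34, 1.52e-06) have near-identical copies that can share reads. Markers of the mesonephros and coelomic epithelium were called lower in 2 of 5 tested (6 listed, median -0.28) and summed to 1392, 768.5, 981.5, 616 and 544 with vehicle and 821.5, 767, 703, 585 and 654 with GPI. The highest sum was the vehicle gonad of M1. Pax8 (-0.28 ± 0.27, 0.526) and Upk3b, with the most counts (0.23 ± 0.11, 0.155), were not called, Cdh1 was lower (-2.65 ± 0.44, 5.76e-04) and Pax2 was not tested.

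Sertoli cell markers were called higher in 8 of 12 and lower in 0 (median 0.54), with sums of 5410.3, 8428, 6467, 7474 and 7906 normalized counts with vehicle and 7321, 10579.8, 10821, 13098 and 10920.1 with GPI. Each GPI sum was above its partner. Sox9 (0.59 ± 0.09, 4.08e-04), Dmrt1 (0.53 ± 0.17, 0.0393) and Gata4, with the most counts (0.53 ± 0.09, 8.45e-04), were higher, and Amh was not called (0.08 ± 0.22, 0.843). Fetal Leydig cell markers were called higher in 5 of 5 tested (6 listed, median 1.75), and their sums were 1463, 3034.5, 4247, 2211 and 5603.5 with vehicle and 10099, 10636, 16332, 18657 and 13579 with GPI. The lowest GPI sum was above the highest vehicle sum. The steroid enzymes Cyp17a1 (3.90 ± 0.29, 5.91e-07), Cyp11a1 (2.90 ± 0.27, 4.56e-06) and Hsd3b1, with the most counts (1.75 ± 0.20, 2.71e-05), and the cholesterol carrier Star (0.79 ± 0.12, 2.93e-04) were higher.

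Markers of interstitial progenitors were called higher in 2 of 6 and lower in 2 (median -0.10), with sums of 16805.5, 17849, 18252, 16171 and 17752 normalized counts with vehicle and 18251, 19666, 17602, 16614 and 20190.5 with GPI. The groups of sums overlapped. Pdgfra, with the most counts, was higher (0.33 ± 0.07, 0.0022) and Nr2f2 was not called (-0.18 ± 0.07, 0.104). Of the markers in these 8 lists, 0 were at 0 in all 10 libraries. The part of these shifts between cell types in the values of the p53 pathway genes was not tested.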

How the data were processed

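Paired testes of 5 embryos (M1 to M5 in the labels), 1 cultured with 75 µM GPI and 1 with DMSO, gave 10 libraries of amplified RNA (Ovation RNA-Seq System V2, Celero EZ DNA-Seq). The authors mapped reads to mm10 with STAR (2.5 in the submitters' processing notes) and counted them per gene of RefSeq Curated without regard to strand with featureCounts of Subread 1.5.0-p1. They deposited raw counts for 24470 entries. The table held 0 columns of values beyond those of the 10 samples.

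edgeR's filterByExpr (minimum count 10, minimum total 15) left 13941 genes. Genes were called by the quasi-likelihood test of edgeR on the counts as deposited, with TMM scaling, a design of embryo and treatment, and Benjamini-Hochberg adjustment over all tested genes at an FDR of 0.05. A standard error is the size of the log2 fold change over the square root of F. Log2 ratios within an embryo used a prior count of 2. Reads were amplified and carry no molecular identifiers, so that errors were taken from the spread between embryos, not from counting. The interval of Gdf15 is the exception, and it leaves out the spread between embryos. The pairing is given by the labels, since both gonads are of 1 embryo; deviations from the group means of paired gonads correlated at 0.155, -0.04, 0.03, 0.082 and 0.073 (mean 0.06, and -0.015 between embryos). Libraries of 1 group differed by far more than sampling noise (chi-square per degree of freedom 6.42 to 27.8), so that none was a second sequencing run of another library of its group. The procedure was tested on simulated data.

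Genes were named by this rule: the 31 pathway genes; of each further pathway list its first 3 genes and the 3 with the smallest p; of each cell type list its first 3 genes and the gene with the most counts; and genes overlapping one of the 31. The result of 1 gene under this rule is not reported. The pathway genes and all lists were chosen with earlier results of these data known. The 13 alternatives comprised 2 other tests (DESeq2 and limma-voom), scaling by total counts or by the size factors of DESeq2, a fit without the replicate block, a stricter filter (10 counts or more in each library), no filter, glmTreat against a fold change of 1.5, and 5 fits that each left out 1 embryo. Transcript lengths came from GENCODE M21 by Entrez identifier, and promoters from RefSeq. Fits used DESeq2 1.42.0, limma 3.58.1 and edgeR 4.0.16 in R 4.3.3. Figures and promoter searches used matplotlib 3.10.9, pandas 2.3.3 and numpy 2.4.6 in Python 3.11.15.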

Additional observations from a re-analysis of the deposited data

Results flagged for a closer look

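Each of the 62 groups of 5 libraries, 31 genes by vehicle or GPI, was examined for a single library far from the other 4, by the gap to its nearest neighbour as a share of the group's range (Dixon's test, critical value 0.71). In 6 of the 62 groups a library stood out, and chance alone marks about 1 in 20 groups. The vehicle gonad of M2 held 131.3 normalized counts of Bax, with the other vehicle gonads at 89.1 to 96.6. The vehicle gonad of M5 held 48 of Pidd1 (27.9 to 32.2 in the others), and the vehicle gonad of M3 held 38 of Aen, with 31 to 32.9 in the others. With GPI, the gonad of M5 held 4906.5 of Mdm4, below the others at 5539.8 to 5773, and 311.6 of Xpc, above the others at 216 to 242.5. The vehicle gonad of M2 held 3972.4 of Mdm4, below the others at 4857.5 to 5219, and just passed the critical value (0.7101).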

How the results depend on the processing

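Calls of Ccng1 and Plk2 were kept under 13 of 13 alternatives. DESeq2 called 1 pathway gene and 0 apoptosis targets lower (Phlda3 adjusted p = 0.0527), beside 8.72% of the 20287 genes with a count in any library. Mdm2 was the regulator called higher, and 0 regulators were called higher without the replicate block (adjusted p = 0.0565), with DESeq2 size factors (0.0544), total counts only (0.11) or at least 10 counts in every library (0.0503). The test against a fold change of 1.5, which asks for more by construction, called 256 genes higher (1.84%) and 622 lower (4.46%). Of the pathway genes it called 1 higher and 1 lower, with 0 regulators higher, and 0 apoptosis targets higher and 0 lower. Without the replicate block of embryos, 6 pathway genes were called higher and 2 lower, beside 1498 (10.7%) and 1610 (11.5%) of all tested genes. That fit changed no other call of a pathway gene than that of Mdm2.

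With 1 embryo left out in turn, 969 to 1430 genes were called higher (6.93% to 10.2%) and 1287 to 1686 lower (9.23% to 12.1%). Of the pathway genes, 5 to 9 were called higher and 1 to 3 lower. By role the counts were 0 to 1 regulators higher, 1 to 2 arrest targets higher and 1 to 2 lower, 4 to 5 apoptosis targets higher and 0 to 2 lower, and 0 to 1 repair targets higher, and the median log2 fold change was 0.20 to 0.26. Signs turned for 3 genes that were not called: Pmaip1 (log2 fold change -0.0284 without M1 and -0.0238 without M2, range -0.03 to 0.28), Bax (0.0512 without M2, range -0.15 to 0.05) and Xpc (-0.0898 without M5, range -0.09 to 0.15). The causes were not tested. At the depth of these libraries the scarce genes Bbc3, Fas, Perp and Dcxr had standard errors of 0.35 to 0.43 on the log2 scale, against 0.09 for Ccng1.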

Other observations

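Some p53 pathway genes outside the 31 were too scarce to test and are named here after their values were seen. The p53 paralog Trp63 stood at 1.1, 2.4, 1.1, 21.9 and 6.9 normalized counts in the vehicle gonads of M1 to M5, with M4 alone above 10, and at 0, 7.3, 3.8, 0 and 1.1 with GPI. The other paralog, Trp73, averaged 4.2 ± 2 (SD, n = 5) with vehicle and 1.7 ± 1.2 with GPI. Cdkn2a, which encodes the Mdm2 inhibitor Arf in mouse, averaged 0.6 ± 0.9 with vehicle and 0.4 ± 0.9 with GPI. Among the further targets, Gls2 stood at 28.8, 10.7, 11.2, 12.9 and 9.1 with vehicle, M1 far above the others, and at 6.7, 9.7, 3.8, 9.5 and 8.7 with GPI, each GPI gonad below its partner, with no test.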
